A study of Rattus norvegicus with 12 samples.

Results

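Ligands of the epidermal growth factor (EGF) family and their ErbB receptors were followed in stretched heart muscle cells of newborn rats. The members were the 10 genes Hbegf, Areg, Ereg, Tgfa, Btc, Nrg1, Egfr, Erbb2, Erbb3 and Erbb4, taken by the gene name printed for each probe on the array, out of 22079 distinct gene names there. They comprise 6 ligands and 4 receptors and were read by 13 probes. The cultures were ventricular cardiomyocytes (NRVCM), kept for 24 h in medium with 10% fetal calf serum on collagen-coated silicone membranes. They were then left unstretched (control) or stretched in pulses along both axes by 20% for 2 h, 6 h or 24 h. Each of the 4 groups had 3 cultures that the submitters call biological replicates, each hybridised in 1 colour to its own Agilent array, and the labels do not say whether each was a new cell isolation, so p-values measure the spread between these samples. All 3 stretch times share the same 3 control cultures, whose time in culture the labels do not name, so stretch and time in culture cannot be told apart.

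EGF-family ligands are made as membrane-anchored precursors that proteases of the ADAM family cut free. Amphiregulin and TGF-alpha bind the EGF receptor, heparin-binding EGF-like growth factor (HB-EGF), epiregulin and betacellulin bind the EGF receptor and ErbB4, and neuregulin-1 binds ErbB3 and ErbB4. ErbB2 has no known ligand of its own and acts as the partner of the other receptors, while ErbB3 has a weak kinase and signals through its partners. In the heart, neuregulin-1 from endothelial cells acts on ErbB4 and ErbB2 of cardiomyocytes, and HB-EGF is known from cardiomyocyte hypertrophy.

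The 60-base probes decide what each value stands for, so those on which the results turn are shown here, read 5′ to 3′ in the sense of the transcript. The probes of Ereg and Erbb4 are given whole because their 60 bases lie across 999 and 1731 bases of the genome and so cross an intron. Of the others the first 30 bases are given. Positions in the genome are those of the array design on rat build rn4, and the number after "base" is the probe's position in the transcript it was designed on.
Hbegf, base 1430, chr18:29143627-29143686, minus strand: atttattgtctgtctacatttcagaagatg
Areg, base 961, chr14:18466438-18466497, minus strand: aagtgacgaatcggtccttctttcagcgaa
Ereg, base 500, chr14:18521343-18522341, minus strand: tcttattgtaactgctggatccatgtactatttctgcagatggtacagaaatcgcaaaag
Tgfa, base 443, chr4:120432206-120432265, plus strand: tgccctggtggtagtctccattgtggccct
Tgfa, base 3952, chr4:120437505-120437564, plus strand: attataaggaccctatgctgtttttagaac
Erbb2, base 2122, chr10:87238370-87238429, plus strand: tggtcgttggaatcctaatcaaacgaagga
Erbb2, base 4289, chr10:87242482-87242541, plus strand: gcactttcatccagaccagtctttgtacag
Erbb2, base 4541, chr10:87242734-87242793, plus strand: ttccaaaagtttgagatggtttggctttgg
Erbb4, base 3477, chr9:66844421-66846151, minus strand: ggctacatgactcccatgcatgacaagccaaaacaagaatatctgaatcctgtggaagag

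Levels are given as the processed signal in percent of the array's own 75th percentile, which lay between 1142 and 1671 intensity units. Between 64.6% and 70.6% of spots on an array were well above background, and 0 were saturated. Testing needed a probe that passed background in every array of some group, which held for 11 of the 13 probes and 8 of the 10 members. Btc passed background on 2 of 12 arrays and Erbb3 on 0 of 12, and neither was tested. The remaining 8 members were above background on all 12 arrays. All 10 cardiomyocyte markers were also above background on every array, and their summed level was 966 to 1043 times the 75th percentile in control cultures, 994 to 1101 at 2 h, 947 to 978 at 6 h and 813 to 884 at 24 h. Markers of macrophages, smooth muscle, fibroblasts and endothelium were detected too, so each value is that of a mixed culture, and fewer cells of a type cannot be told apart from less RNA per cell.

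Hbegf and Areg, coding for HB-EGF and amphiregulin, rose at every stretch time, and Ereg, coding for epiregulin, rose at 2 h and 24 h. Tgfa, coding for TGF-alpha, rose at 24 h by the brighter of its probes and fell by the other. Among the receptors Erbb4 fell at 24 h, while no change of Egfr or Erbb2 passed the test on the probe used for each gene. Nrg1, coding for neuregulin-1, passed the test at no time, though 1 alternative, array median scaling, called it higher at 24 h. In the F test over the 4 groups 5 of the 8 tested members passed at an adjusted p below 0.05, namely Hbegf, Areg, Ereg, Tgfa and Erbb4, against a background of 52.8% of all genes tested.

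Hbegf stood at 77.9, 76.3 and 80.6% in the control cultures, at 136, 134 and 136% after 2 h, at 125, 114 and 129% after 6 h and at 149, 156 and 145% after 24 h. Every stretched culture was above every control culture, and the 24 h cultures were the highest of all. The change was 0.79 ± 0.053 on the log2 scale at 2 h (SE, n = 3 per group; 1.73-fold; adjusted p = 0.000257), 0.65 ± 0.053 at 6 h (1.57-fold; adjusted p = 0.000346) and 0.94 ± 0.053 at 24 h (1.92-fold; adjusted p = 7.93e-07). The mean at 6 h was the lowest of the 3 stretch times. The difference in log2 level was 0.29 ± 0.053 for 24 h minus 6 h (adjusted p = 0.00299), whereas that for 6 h minus 2 h was -0.14 ± 0.053 (adjusted p = 0.114).

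Areg was at 78.2, 62.4 and 68.4% in control cultures, at 102, 100.3 and 121% after 2 h, at 131, 117 and 143% after 6 h and at 143, 165 and 146% after 24 h. Each group mean was higher than that of the preceding time, and no stretched culture overlapped the controls. The log2 change against control was 0.63 ± 0.11 at 2 h (1.55-fold; adjusted p = 0.00698), 0.91 ± 0.11 at 6 h (1.87-fold; adjusted p = 0.000936) and 1.12 ± 0.11 at 24 h (2.18-fold; adjusted p = 1.86e-05). The 24 h level exceeded the 2 h level by 0.49 ± 0.11 on the log2 scale (adjusted p = 0.00352), while the differences of 0.28 for 6 h minus 2 h (adjusted p = 0.124) and 0.22 for 24 h minus 6 h (adjusted p = 0.159) did not pass. The calls of Hbegf and Areg against control held under all 25 alternatives at 2 h and at 6 h and all 24 at 24 h, with 24 h changes between 0.82 and 1.37 for Hbegf and between 0.91 and 1.56 for Areg.

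Ereg was dimmer, at 11.1, 9.32 and 9.18% in control cultures, at 13.4, 12.1 and 11.995% after 2 h, at 12.6, 11.46 and 11.02% after 6 h and at 13.3, 13.9 and 14.2% after 24 h. The 2 h and 24 h cultures lay above the controls, while 1 of the 6 h cultures was below the highest control. Ereg rose by 0.34 ± 0.082 on the log2 scale at 2 h (1.27-fold; adjusted p = 0.0273) and by 0.49 ± 0.082 at 24 h (1.40-fold; adjusted p = 0.000754), and at 6 h the change was 0.25 ± 0.082 (adjusted p = 0.0618). The 2 h call was lost without control replicate 2 (adjusted p = 0.0964), without control replicate 3 (0.0933) or without 2 h replicate 1 (0.0884). It was also lost with normexp background, where the value was 0.13 (adjusted p = 0.239), with spike-in scaling (0.261), with no filter on dim probes (0.0689), with only the groups compared (0.0916) and on slide 1 alone, so that 17 of 25 alternatives called it. The 6 h change was called under 6 of 25 alternatives. It passed without control replicate 1 (0.34; adjusted p = 0.0156) and with quantile (0.0259), array median (0.0202) or spike-in scaling (0.00416). The deposited value table (0.0186) and the replicate block (0.0477) called it too. The difference for 6 h minus 2 h was -0.10 (adjusted p = 0.468). The 24 h call held under all 24 alternatives, with values between 0.25 (normexp background) and 0.92 (spike-in scaling).

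Tgfa was read by 2 probes that moved apart. The probe at base 3952, the brighter one and therefore the one used for the gene, was at 19.9, 18.1 and 17.6% in control cultures, at 23.5, 24.9 and 20.3% after 2 h, at 24.2, 26.8 and 22.9% after 6 h and at 27.8, 39.0 and 27.3% after 24 h. All stretched cultures were above the controls on this probe, and 24 h replicate 2 was the highest. The log2 change was 0.30 ± 0.13 at 2 h (adjusted p = 0.184), 0.41 ± 0.13 at 6 h (adjusted p = 0.0558) and 0.74 ± 0.13 at 24 h (1.67-fold; adjusted p = 0.00104), and 0.57 at 24 h without 24 h replicate 2. The 6 h change was called under 9 of 25 alternatives, with values over all 25 between 0.13 and 0.89. Among these calls were quantile (adjusted p = 0.0261) and array median scaling (0.0246), the deposited value table (0.0278) and a variance trend (0.0271). With the mean of both probes the 24 h change was 0.24 and still called.

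The Tgfa probe at base 443 was at 14.8, 15.7 and 15.0% in control cultures, at 16.1, 16.3 and 14.6% after 2 h, at 12.8, 14.2 and 13.8% after 6 h and at 14.02, 11.8 and 12.02% after 24 h. Here the 6 h and 24 h cultures lay below all controls. In a fit over all kept probes the log2 change of this probe was 0.05 ± 0.075 at 2 h (adjusted p = 0.767), -0.16 ± 0.075 at 6 h (adjusted p = 0.192) and -0.27 ± 0.075 at 24 h (adjusted p = 0.0144), and the last call was lost without control replicate 2, 24 h replicate 2 or 24 h replicate 3 (adjusted p between 0.0503 and 0.0566) and under quantile, array median or spike-in scaling, where the value was -0.09, -0.07 and 0.16. Within each array, where scaling has no part, the log2 ratio of the base 3952 probe to the base 443 probe averaged 0.29 ± 0.12 in control cultures, 0.54 ± 0.065 at 2 h, 0.86 ± 0.11 at 6 h and 1.30 ± 0.38 at 24 h (SD, n = 3 each). At each of the 3 times the ratio of every stretched culture exceeded that of every control culture, with a two-sided exact permutation p of 0.1, the smallest that 3 against 3 arrays can give. The 24 h ratio differed from the control ratio by 1.01 on the log2 scale. This test was chosen after the values of both probes had been seen, and which transcripts of Tgfa each probe reads was not tested.

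**Figure D1:**
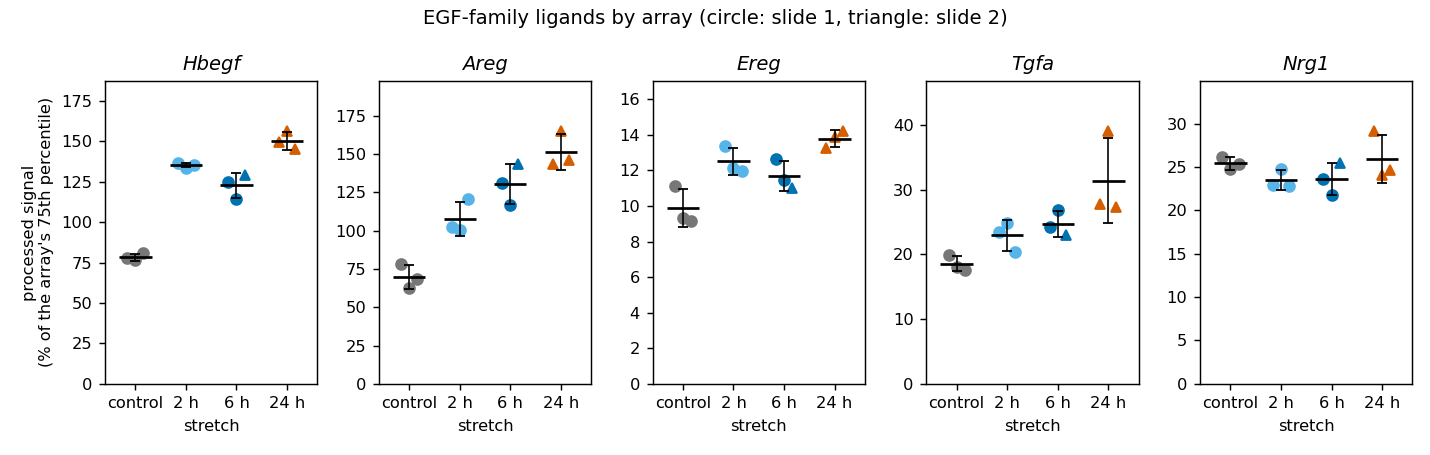
Processed signal of the 5 tested ligands on each array, in percent of the array's 75th percentile (vertical axis from 0), for control, 2 h, 6 h and 24 h. Points are arrays (circles slide 1, triangles slide 2), bars are means with SD (n = 3), and Tgfa is the probe at base 3952. Hbegf and Areg stand above the controls in every stretched culture, and Nrg1 overlaps them at each time.

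Nrg1 was at 26.2, 24.8 and 25.3% in control cultures, at 22.9, 24.8 and 22.8% after 2 h, at 23.6, 21.7 and 25.5% after 6 h and at 29.1, 24.1 and 24.7% after 24 h. The groups overlapped at each time. The log2 change was -0.11 ± 0.080 at 2 h (adjusted p = 0.418), -0.11 ± 0.080 at 6 h (adjusted p = 0.381) and 0.025 ± 0.080 at 24 h (adjusted p = 0.818), and the 95% interval at 24 h ran from -0.15 to 0.20. At 24 h array median scaling gave 0.22 (adjusted p = 0.0376) and spike-in scaling 0.46 (adjusted p = 0.0540). Nrg1 has several isoforms, and its 1 probe, at base 915, does not tell them apart. Btc, coding for betacellulin, was above background on 1 array at 6 h and 1 at 24 h, at 1.00 and 0.875% of the 75th percentile, and on none of the control and 2 h arrays.

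Egfr, the receptor shared by most of these ligands, was at 30.1, 35.6 and 35.9% in control cultures, at 27.5, 27.1 and 30.8% after 2 h, at 26.8, 28.6 and 32.7% after 6 h and at 34.6, 27.4 and 33.0% after 24 h. All groups overlapped. The log2 changes were -0.25 ± 0.11, -0.20 ± 0.11 and -0.10 ± 0.11 at 2 h, 6 h and 24 h (adjusted p = 0.186, 0.222 and 0.471), and the 95% interval at 24 h was -0.34 to 0.14.

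Erbb2 had 3 probes, none of which rose. The brightest, at base 4289, was at 286, 284 and 266% in control cultures, at 248, 208 and 253% after 2 h, at 272, 252 and 267% after 6 h and at 247, 254 and 261% after 24 h. The 2 h and 24 h cultures lay below the controls, but the log2 changes of -0.24 ± 0.072 at 2 h (adjusted p = 0.0623), -0.08 ± 0.072 at 6 h (adjusted p = 0.487) and -0.13 ± 0.072 at 24 h (adjusted p = 0.154) did not pass. At 2 h it was called lower with quantile scaling (adjusted p = 0.0357), in the deposited value table (0.0369) and with a variance trend (0.0221). At 24 h it was called lower with the mean of its probes (-0.33; adjusted p = 0.00156) and without 2 h replicate 2 (-0.13; adjusted p = 0.0417). The other 2 probes, added to the comparison after their values were known, were lower at 24 h, by -0.29 ± 0.050 at base 4541 (adjusted p = 0.00112) and by -0.58 ± 0.14 at base 2122 (adjusted p = 0.00606), and both lost the call with the slide as a block (adjusted p = 0.109 and 0.174). The base 2122 probe also lost it with quantile (-0.29; adjusted p = 0.0802) and spike-in scaling (-0.15; adjusted p = 0.540), and the base 4541 probe with array median scaling (-0.091; adjusted p = 0.128). The base 4541 probe changed by 0.15 with spike-in scaling, the only alternative of 22 that turned its sign.

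Erbb4, the receptor of neuregulin-1 with a full kinase, was at 4.42, 5.49 and 4.95% in control cultures, at 4.70, 4.28 and 4.16% after 2 h, at 3.96, 4.97 and 3.13% after 6 h and at 2.62, 2.24 and 1.70% after 24 h. The 24 h cultures were the lowest of all 12, and the other groups overlapped. Erbb4 fell by 1.19 on the log2 scale at 24 h, with an SE of 0.18 (2.29-fold lower; adjusted p = 0.000355), against -0.17 ± 0.18 at 2 h (adjusted p = 0.599) and -0.32 ± 0.18 at 6 h (adjusted p = 0.247). The difference in log2 level was -0.88 ± 0.18 between 24 h and 6 h (adjusted p = 0.00553) and -1.02 ± 0.18 between 24 h and 2 h (adjusted p = 0.00102). The probe is dim, at 27.05 to 69.2 intensity units where the lowest signal counted as above background was 14.1 to 26.3, and the 24 h change was smaller with normexp background (-0.79) and in the deposited value table (-0.57). Erbb3 was not above background on any array.

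**Figure D2:**
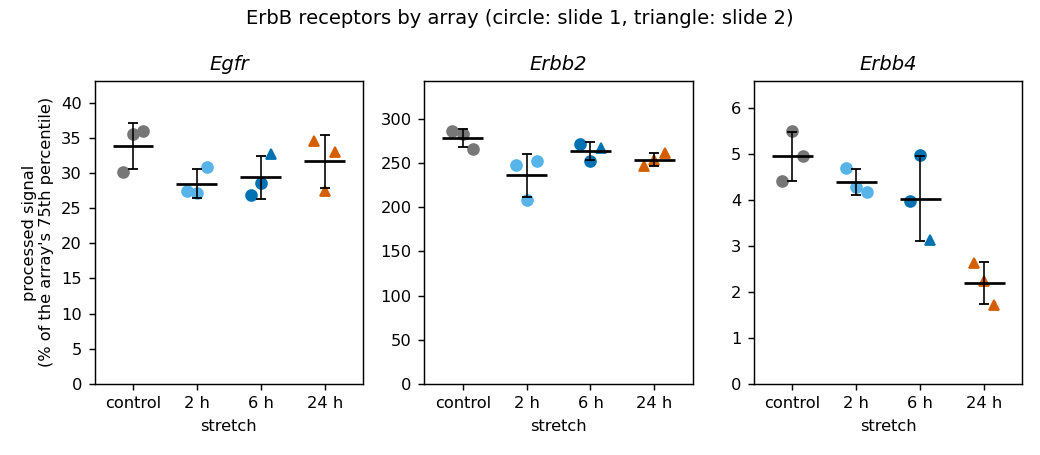
Processed signal of the 3 tested ErbB receptors on each array, in percent of the array's 75th percentile (vertical axis from 0), for control, 2 h, 6 h and 24 h, with means and SD (n = 3) and the slide as point shape. Erbb2 is the probe at base 4289. For Erbb4 the 24 h cultures lie at 1.70 to 2.62%, below all others, and Egfr overlaps at each time.

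All controls and 2 h arrays and 2 of the 6 h arrays were on slide 1, and all 24 h arrays and 6 h replicate 3 were on slide 2. With slide as a block, which rests on that 1 array to join the slides, the 24 h changes were 0.82 for Hbegf (adjusted p = 0.000817), 0.91 for Areg (0.0116), 0.61 for Ereg (0.0235) and 0.89 for Tgfa (0.0368), all still called. For Erbb4 the value was -0.69 ± 0.27 (adjusted p = 0.126), no longer called. Within slide 2 the log2 level at 24 h minus that of the single 6 h array was 0.22 for Hbegf, 0.08 for Areg, 0.32 for Ereg, 0.43 for Tgfa and -0.54 for Erbb4, given as values since a single 6 h array stands on one side. Within slide 1 the 2 h changes had the same values as over all arrays, with adjusted p = 0.00301 for Hbegf, 0.0226 for Areg and 0.0670 for Ereg, and the 6 h changes were 0.61 for Hbegf and 0.83 for Areg (adjusted p = 0.00446 and 0.0114). There Tgfa on its brighter probe was also called at 6 h, at 0.46 (adjusted p = 0.0330), and Ereg was not, at 0.29 (adjusted p = 0.111). Slide also ended the calls between times, with 24 h minus 6 h at 0.22 for Hbegf and -0.54 for Erbb4 (adjusted p = 0.109 and 0.176).

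Ligands and receptors were then counted apart. At 2 h 3 of the 5 tested ligands rose and 0 fell (Hbegf, Areg, Ereg), and 0 of the 3 tested receptors changed, where 9.2% of all 14376 genes were called, 3.1% higher and 6.1% lower. At 6 h 2 of 5 ligands rose (Hbegf, Areg) and 0 of 3 receptors changed, against 16.8% of all genes called, 5.06% higher and 11.7% lower. At 24 h 4 of 5 ligands rose and 1 of 3 receptors fell, against 47.9% of all genes called, 16.2% higher and 31.7% lower. These counts use the brightest probe of each gene. They leave out the further probes of Tgfa and Erbb2, which were called lower at 24 h. Of all genes called at 24 h 66.3% were lower, against 28.3% with array median, 46.7% with quantile and 10.4% with spike-in scaling. The median log2 change of the 5 ligands was 0.34 at 2 h, 0.41 at 6 h and 0.74 at 24 h, that of the 3 receptors was -0.24, -0.20 and -0.13, and that of all genes was -0.01, -0.05 and -0.08. The ligand medians at 6 h and 24 h are the values of the Tgfa probe at base 3952. The Tgfa probe at base 443 changed by -0.16 and -0.27 at these times. Between times limma called 2 members at 24 h against 6 h (Hbegf higher and Erbb4 lower; background 25%, with 9.57% higher and 15.5% lower) and 4 at 24 h against 2 h (Hbegf, Areg and Tgfa higher and Erbb4 lower; background 48.2%, with 18% higher and 30.2% lower). At 6 h against 2 h limma called 0 of 8 members (background 10.5%, with 3.68% higher and 6.8% lower), with 3 at an unadjusted p below 0.05 and 1 called in the deposited value table. The stretch groups share their controls, so counts at the 3 times are not independent.

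**Figure D3:**
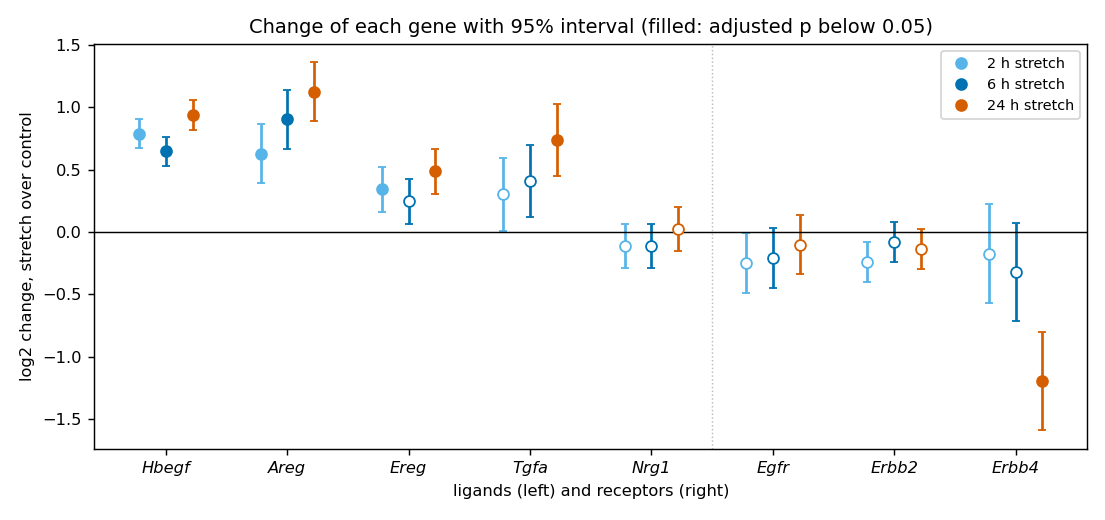
Log2 change of each tested member at 2 h, 6 h and 24 h of stretch over control, with its 95% interval from the model (n = 3 per group), ligands left and receptors right of the dotted line. Filled points have an adjusted p below 0.05. Tgfa is the probe at base 3952, and its probe at base 443 is not shown here. Hbegf, Areg, Ereg and this Tgfa probe lie above 0 at all times and Erbb4 reaches -1.19 at 24 h.

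At 24 h 4 of the 8 tested members rose and 1 fell on the probe used for each gene, where 16.2% of all genes were called higher and 31.7% lower. The same shares stand beside the 24 h marker counts of the main fit below. All 10 tested macrophage and leukocyte markers fell at 24 h, among them Adgre1, coding for a macrophage surface receptor (-2.57 ± 0.084; adjusted p = 8.29e-08), and Cd68 (-1.35 ± 0.075; adjusted p = 6.98e-07), and 9 of 10 did so with spike-in scaling. Their summed level was 16.8 to 16.9 times the 75th percentile in control cultures, 17.7 to 20.6 at 2 h, 15.3 to 17.1 at 6 h and 5.84 to 6.80 at 24 h. Of the cardiomyocyte markers 7 of 10 fell and 1 rose at 24 h, and none was called at 2 h or 6 h. With spike-in scaling 1 of these 10 rose and 0 fell at 24 h and 4 rose at 6 h, and with slide as a block 0 rose and 1 fell at 24 h. Of all 14376 genes spike-in scaling called 4863 higher and 567 lower at 24 h. At 6 h it called 6713 higher and 46 lower. Slide as a block called 497 higher and 1548 lower at 24 h. At 24 h 7 of 10 fibroblast markers, 6 of 9 endothelial markers and 6 of 10 smooth muscle markers fell, against 0, 0 and 1 that rose, but with spike-in scaling 0, 0 and 2 fell. Of the epicardial markers 4 of 10 rose and 3 fell, and of the neural markers 1 of 6 rose and 3 fell. The summed level of the epicardial markers was 20.2 to 22.7 times the 75th percentile in control cultures, 20.7 to 24.3 at 2 h, 25.4 to 26.4 at 6 h and 31.5 to 33.1 at 24 h. Such a sum weighs bright markers most, and the median log2 change of this list at 24 h was -0.077, with values from -0.92 to 1.18. The part of the cells behind any of the marker lists in the changes of the ligands and of Erbb4 was not tested. At 2 h, where 3.1% of all genes were called higher and 6.1% lower, 1 of 10 macrophage markers (Adgre1, 0.59 ± 0.084; adjusted p = 0.00331) and 1 of 10 epicardial markers rose. At that time 1 of 10 fibroblast markers fell and no marker of the other cell types was called. At 6 h 3 of 10 smooth muscle markers and 2 of 10 macrophage markers fell, and of 10 epicardial markers 1 rose and 2 fell. No fibroblast, endothelial or neural marker was called at 6 h, where 5.06% of all genes were higher and 11.7% lower.

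**Figure D4:**
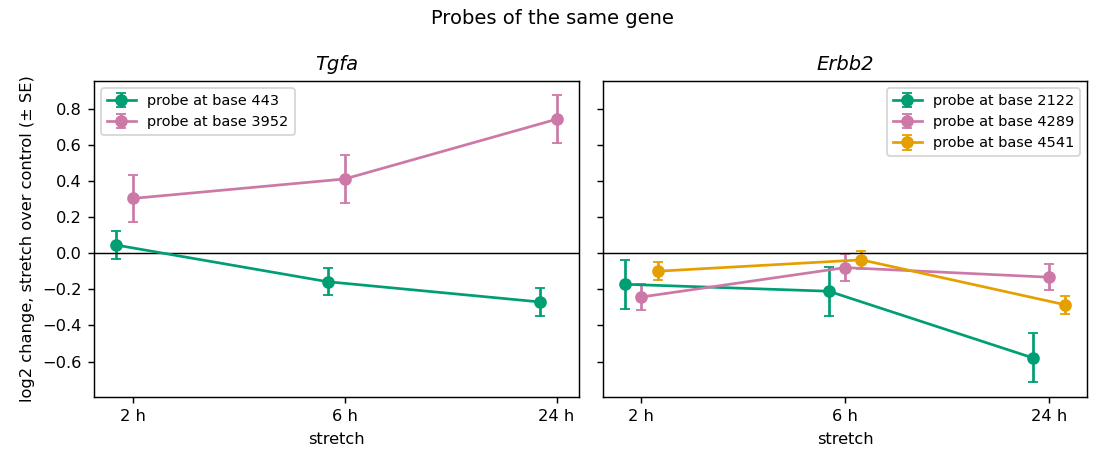
Log2 change over control (± SE, n = 3 per group) of the probes of Tgfa (left) and Erbb2 (right) at 2 h, 6 h and 24 h, from the fit over all kept probes. Points of a probe are joined by lines. The Tgfa probes reach 0.74 and -0.27 at 24 h, while the Erbb2 probes are all below 0.

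Areg and Ereg are neighbours. On the array design's rn4 positions the probes of Btc, Areg, Ereg and Epgn (coding for epigen) follow each other on chromosome 14 within 341 kb, and in the RefSeq annotation these are 4 consecutive genes. The probes of Areg and Ereg are 54.8 kb apart. Areg and Ereg, in the middle, were above background on all 12 arrays and rose, whereas the outer genes Btc and Epgn were above background on 2 and 0 arrays. Expression of neighbours was not tested further, since nothing else in the files bears on the locus.

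The upstream sequence of Hbegf and Areg, the members that rose at every time, is shown as the 250 bases before the annotated start in RefSeq's GRCr8 assembly, where 7 of the 10 members had an entry. Capitals mark the motifs that were found. The motifs searched on both strands were TGANTCA (AP-1), TGACGTCA (cyclic AMP response element), CATTCC (TEAD), GGGCGG (Sp1) and TATAAA (core promoter box).
Hbegf, chr18:28390221-28390470, minus strand: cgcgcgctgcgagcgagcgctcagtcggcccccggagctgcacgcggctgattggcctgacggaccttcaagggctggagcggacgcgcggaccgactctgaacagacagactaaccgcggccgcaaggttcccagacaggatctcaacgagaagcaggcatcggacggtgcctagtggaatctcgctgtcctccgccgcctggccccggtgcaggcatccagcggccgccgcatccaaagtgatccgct
Areg, chr14:17265642-17265891, minus strand: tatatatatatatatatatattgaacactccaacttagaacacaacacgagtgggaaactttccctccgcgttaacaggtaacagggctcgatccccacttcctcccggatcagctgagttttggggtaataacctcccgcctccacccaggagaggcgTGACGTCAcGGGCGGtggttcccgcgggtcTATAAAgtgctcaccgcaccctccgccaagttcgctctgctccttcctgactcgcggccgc

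In the Areg window TGACGTCA begins 91 bases, GGGCGG 82 bases and TATAAA 61 bases before the start. The Hbegf window holds none of the 5 motifs. Over all 33469 promoter windows of this length, TGANTCA is in 6.34%, TGACGTCA in 1.59%, CATTCC in 12.1%, GGGCGG in 30.5% and TATAAA in 12.9%. Of the 7 members with a window, 6 hold GGGCGG, 1 (Erbb2) CATTCC, 1 (Areg) TGACGTCA, 1 (Areg) TATAAA and 0 TGANTCA. These matches are a description of letters and were set against no binding data.

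Among all 14376 genes, the pattern of Areg over the 12 arrays was most like that of Nppb, coding for the natriuretic peptide BNP (Pearson r = 0.978), an array transcript named TC591970 (r = 0.976) and Dnajb5, coding for a heat-shock co-chaperone (r = 0.972). Their log2 changes at 24 h were 0.98, 1.15 and 0.72. Areg was taken as the ligand with the widest range of group means, 1.12 on the log2 scale. For Erbb4, the receptor with the widest range (1.19), the most alike were Sbk2 (r = 0.959), Lrrc4 (r = 0.958) and Or13l2 (r = 0.954), with 24 h changes of -1.18, -0.90 and -0.95. The arrays share groups and slides, and these genes were picked as the highest of all, so the coefficients describe likeness only.

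Of 5 further EGF-family ligands, Epgn, Nrg2, Nrg3 and Nrg4 were not above background on all arrays of any group. Egf itself, tested on a dim probe at 27.6 to 44.3 intensity units, fell at 2 h by 0.50 on the log2 scale (SE 0.08; adjusted p = 0.00642) and at 24 h by 0.65 (SE 0.08; adjusted p = 0.000133). The other Egf probe, at 5.51 to 13.8 intensity units, was above background on 0 arrays. At 6 h the change was -0.21 ± 0.083 (adjusted p = 0.116). The Egf changes at 2 h and 24 h were smaller in the deposited value table, -0.12 and -0.26, and the 2 h call was lost there, with normexp background and with spike-in scaling, and the 24 h call with spike-in scaling and with slide as a block.

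Genes that process the ligands were lists of their own, chosen with results of these data known. Of 11 tested sheddase and ligand-processing genes 0 were called at 2 h, with limma, 2 fell at 6 h, and 1 rose and 4 fell at 24 h. All genes together had 9.2, 16.8 and 47.9% called at these times. Of them 5.06% were higher and 11.7% lower at 6 h, and 16.2% higher and 31.7% lower at 24 h. Rhbdf2, coding for the iRhom2 partner of the sheddase ADAM17, rose at 24 h (0.64 ± 0.087; adjusted p = 0.000191). Adam15, a membrane metalloprotease, fell at 6 h (-0.41 ± 0.089; adjusted p = 0.0117) and 24 h (-0.60 ± 0.089; adjusted p = 0.000337). Timp3, coding for an inhibitor of ADAM proteases, also fell at both times (-0.32 ± 0.089 and -0.44 ± 0.089; adjusted p = 0.0358 and 0.00251). At 24 h Adam10, coding for another sheddase, fell (-0.33 ± 0.053; adjusted p = 0.000632), as did Bace1, a protease known to cut neuregulin-1 (-0.57 ± 0.15; adjusted p = 0.0114). With spike-in scaling no fall of this list was called and the Adam10 value was 0.11. At 24 h that scaling called 567 of all 14376 genes lower. With slide as a block only the fall of Adam15 was called at 24 h, and Rhbdf2 stood at 0.50 (adjusted p = 0.0580). There 1548 of all genes were called lower.

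Of 33 tested adaptors and kinases downstream of the receptors 2 rose and 1 fell at 2 h, 2 rose and 4 fell at 6 h, and 5 rose and 8 fell at 24 h. Beside these counts stand 9.2, 16.8 and 47.9% of all genes called, with 16.2% higher and 31.7% lower at 24 h. Pik3r1, the regulatory subunit of PI3-kinase, fell at 24 h (-0.53 ± 0.087; adjusted p = 0.000606), and so did Plcg1, coding for phospholipase C gamma (-0.49 ± 0.062; adjusted p = 0.000123), and Mapk3, coding for ERK1 (-0.37 ± 0.082; adjusted p = 0.00365). Stat5a fell at all 3 times, by -0.26 ± 0.058 at 2 h (adjusted p = 0.0207) up to -0.38 ± 0.058 at 24 h (adjusted p = 0.000461). Hras rose at all 3 times, by 0.38 ± 0.10 at 2 h (adjusted p = 0.0475) and 0.34 ± 0.10 at 24 h (adjusted p = 0.0212). With array median scaling the 24 h counts of this list were 16 higher and 3 lower, where 5579 of all 14376 genes were higher and 2202 lower. With spike-in scaling they were 14 and 0, against 4863 and 567 of all genes, and Mapk3 and Stat5a were at 0.06. With slide as a block 0 rose and 1 fell at 24 h by limma, against 497 and 1548 of all genes.

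Of 22 tested genes for receptor turnover and inhibition 2 rose at 2 h, 1 rose and 2 fell at 6 h, and 4 rose and 7 fell at 24 h. All genes together had 9.2, 16.8 and 47.9% called at these times, with 16.2% higher and 31.7% lower at 24 h. Errfi1, coding for the inhibitor MIG6 that binds the EGF receptor kinase, rose at 2 h (0.24 ± 0.061; adjusted p = 0.0368) and 24 h (0.43 ± 0.061; adjusted p = 0.000252). Lrig1, coding for a membrane protein that promotes ErbB degradation, fell at 24 h (-0.51 ± 0.084; adjusted p = 0.0007), as did the phosphatases Ptprk (-0.78 ± 0.079; adjusted p = 3.00e-05) and Ptprj (-0.39 ± 0.086; adjusted p = 0.00403) and the feedback inhibitor Spry1 (-0.46 ± 0.070; adjusted p = 0.000385). With array median scaling this list had 10 higher and 3 lower at 24 h, where 5579 of all 14376 genes were higher and 2202 lower. With spike-in scaling it had 9 and 0, against 4863 and 567 of all genes, and the Ptprj value was 0.045. With slide as a block 0 rose and 2 fell at 24 h by limma, against 497 and 1548 of all genes.

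Of 25 tested transcripts known to follow ERK activity, 9 rose and 0 fell at 2 h, 3 rose and 3 fell at 6 h, and 10 rose and 5 fell at 24 h. The median log2 change of this list was 0.19, 0.01 and 0.20 at the 3 times. With normexp background the median was 0.074 at 2 h and 0.064 at 24 h. At 24 h 8 rose and 7 fell there, where 2062 of all 14376 genes rose and 6170 fell. Fosl1, coding for the AP-1 subunit FRA-1, rose at each time (0.60, 0.75 and 1.46, each ± 0.12; adjusted p = 0.0137, 0.00307 and 6.78e-06), and so did Myc (0.47, 0.51 and 1.07, each ± 0.08; adjusted p = 0.0064, 0.00242 and 3.27e-06). Dusp1, coding for a MAP kinase phosphatase, rose at 24 h (0.73 ± 0.11; adjusted p = 0.000422), whereas Etv1, an ETS factor, fell at 6 h and 24 h (-0.43 ± 0.075 and -0.90 ± 0.075; adjusted p = 0.00435 and 7.43e-06). Mmp9, a secreted protease, was above background on all control and 2 h arrays, 1 array at 6 h and none at 24 h, where it was at least 1.78-fold lower than in control cultures. It entered the tested genes through the control and 2 h arrays alone, so its difference is given as a bound with no test. The counts and medians of this list were made with Mmp9 included. In the main fit it is 1 of the genes counted as fallen at 6 h and at 24 h, and those 2 calls are not read as a result. With slide as a block 4 rose and 2 fell at 24 h, where 497 of all 14376 genes rose and 1548 fell. With spike-in scaling 17 rose and 2 fell, where 4863 of all genes rose and 567 fell. For comparison with the counts of the main fit, the shares of all genes called in it were 9.2, 16.8 and 47.9% at the 3 times. Higher were 3.1, 5.06 and 16.2%, and lower were 6.1, 11.7 and 31.7%.

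**Figure D5:**
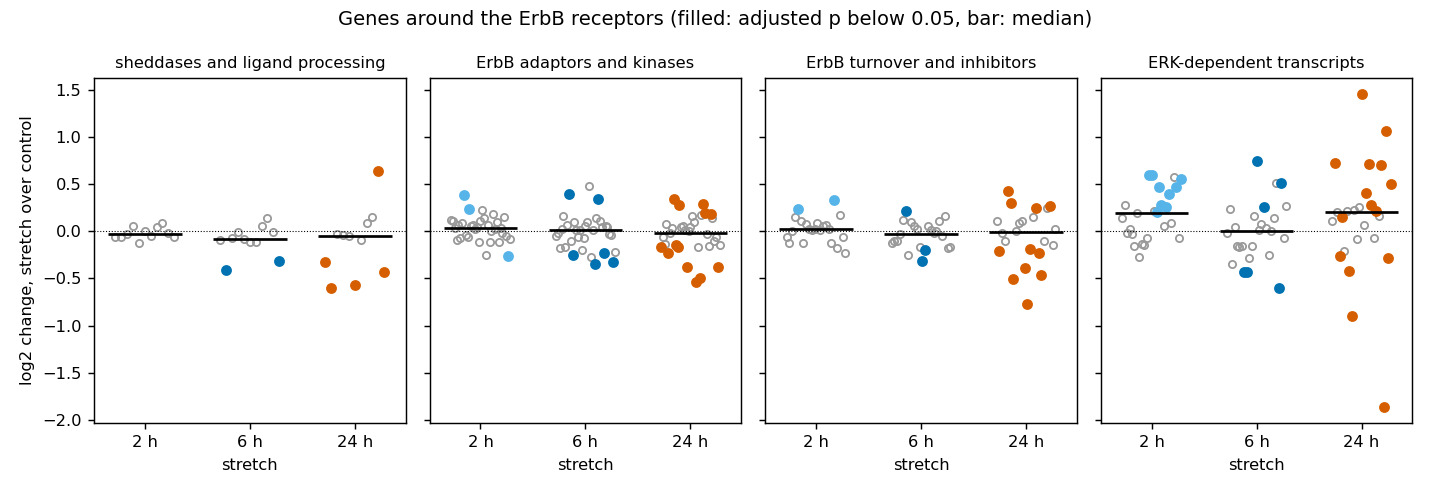
Log2 change over control at 2 h, 6 h and 24 h of each tested gene in 4 lists around the ErbB receptors. Each point is a gene, filled where its adjusted p is below 0.05, and bars are list medians. Mmp9, given no test in the text, is among the filled points at 6 h and 24 h. The median of the ERK-dependent transcripts is 0.19 at 2 h and 0.20 at 24 h, while those of the other lists lie between -0.08 and 0.04.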

How the data were processed

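Total RNA was labelled with Cy3, per the labels, and read on Agilent rat arrays. Per the file headers, Feature Extraction 11.0.1.1 made the deposited processed intensity, linear, with background and trends removed within the array, low values replaced by surrogates, and arrays left unscaled. The submitters' processing notes give 10.7.3.1 instead. The mean signal and local background are intensities before subtraction, and each flag column is another kind of value, 0 or 1, as deposited. The deposited value table, a linear intensity whose scaling between arrays is not stated, served as an alternative.

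Signals were put on the log2 scale, spots with outlier flags left out (224 to 359 of 58717), spots of a probe averaged, and the array's 75th percentile subtracted. Probes well above background on all 3 arrays of a group were kept (18997 of 30367), with the brightest probe for each of 14376 genes. A model with 4 group means was fitted with limma 3.58.1 (lmFit, eBayes; R 4.3.3) to all 12 arrays; two-sided p-values got a Benjamini-Hochberg adjustment across all genes, and a gene was called below 0.05. The members, the 5 pathway lists and the marker lists were chosen with earlier results of these data known. Named list genes were up to 5 called ones with the largest change per list; genes of like pattern were the 3 with the highest r. Cd68 and Adgre1 were named after their values were seen. Alternatives changed scaling, background, filter, probe choice, samples, slide, variance and replicates. A bound on a fold takes each dim value at the lowest signal counted as above background on its array or its own, whichever is higher. The limma fit was tested on simulated data.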

Additional observations from a re-analysis of the deposited data

Results flagged for a closer look

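Changes that differed between stretch times by the direct comparison of the 2 times, which share their controls, were as follows, as log2 differences of the later minus the earlier time. For 24 h minus 6 h the difference was 0.29 for Hbegf and -0.88 for Erbb4. For 24 h minus 2 h it was 0.15 for Hbegf (adjusted p = 0.0382), 0.49 for Areg, 0.44 for Tgfa (adjusted p = 0.0186) and -1.02 for Erbb4. The Hbegf difference of 0.15 held in 13 of 24 alternatives, and its adjusted p was 0.0519 to 0.123 without any one of the 3 cultures of 2 h, 6 h replicate 1, or 24 h replicate 1 or 2. The Tgfa difference was not called without 2 h replicate 3 (0.35; adjusted p = 0.0663) or with the mean of both probes (0.062). With slide as a block none of the 6 differences was called. Groups of 3 are too small for a check of single outlying cultures.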

How the results depend on the processing

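Changes of Hbegf and Areg against control, and of Ereg and Tgfa at 24 h, kept direction and call in each alternative run. Tgfa went down to 0.24 with the mean of its probes, and its other alternatives all used the brighter probe at base 3952. They could not test its probe at base 443, which was called lower at 24 h (-0.27). Erbb4 at 24 h kept direction and call in 23 of 24 and lost the call with slide as a block (-0.69). Spike-in scaling moved the median of all genes to 0.17, 0.43 and 0.35 at 2 h, 6 h and 24 h, and array median scaling to 0.11 at 24 h. At 2 h against control 2 to 4 members were called in place of 3, with Ereg lost in 8 alternatives and Erbb2 gained with quantile scaling, the deposited table and a variance trend. At 24 h against control 4 to 6 were called in place of 5, with Erbb4 lost with slide as a block, Nrg1 gained with array median scaling, and Erbb2 gained with the mean of probes and without 2 h replicate 2. The number of members called at 6 h against control was 4 in place of 2 with quantile, array median or spike-in scaling, in the deposited value table and with the replicate block. At 6 h against 2 h it was 1 in place of 0 in the deposited table. At 24 h against 6 h it was 5 in place of 2 with array median scaling, 1 with spike-in scaling, 4 in the deposited table and with the replicate block, and 0 with slide as a block or on slide 2 alone, where a single 6 h array makes the count uninformative. At 24 h against 2 h it was 8 in place of 4 with array median scaling and in the deposited table, 2 with only the groups compared, 0 with slide as a block, and 2 to 4 when 1 culture was left out, the lowest without 2 h replicate 3. The F test called 3 in place of 5 with slide as a block. The cause of these differences was not tested. Deviations of same-numbered cultures correlated between -0.11 and 0.10 over genes, over 0.1 in 1 of 18 pairs. No shared effect of the replicate number was seen, though this cannot tell how the cultures were made. The replicate block gave 3 members at 2 h, 5 at 24 h and 3 at 24 h against 2 h.

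Changes that turned sign were uncalled in the main fit, except those of the further probes. With spike-in scaling these were Nrg1 at 2 h (0.065) and 6 h (0.37), Egfr at 6 h (0.28) and 24 h (0.33), Erbb2 at 6 h (0.40) and 24 h (0.30), Erbb4 at 2 h (0.0067) and 6 h (0.16), the 24 h values of the Erbb2 probe at base 4541 (0.15) and the Tgfa probe at base 443 (0.16), and at 6 h against 2 h Hbegf (0.16), Ereg (0.21) and Erbb4 (0.16). With array median scaling they were Egfr at 24 h (0.095), Erbb2 at 6 h (0.020) and at 24 h (0.062). The deposited table gave 0.039 for Egfr and 0.035 for Erbb2 at 24 h and 0.0094 for Erbb4 at 2 h. Normexp gave -0.028 for Nrg1 and 0.022 for Erbb2 at 24 h. Slide as a block gave -0.14 for Nrg1 at 24 h and 0.021 for Erbb4 at 6 h against 2 h, as did slide 1 alone (0.021), and the mean of both probes gave -0.048 for Tgfa there. With 1 culture left out Nrg1 at 24 h lay between -0.061 (without 24 h replicate 1) and 0.076, and Erbb4 at 6 h against 2 h between -0.31 and 0.021 (without 6 h replicate 3). Dim signals limit Erbb4, Egf, Btc and Erbb3, and 3 cultures a group limit every change.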
